A study of Mus musculus with 6 samples.

Results

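The vacuolar proton pump (V-ATPase) was followed through 10 subunit genes of the 34741 genes named on a mouse expression array, which are measured by 12 of the 55681 non-control probes. The genes were taken by symbol from the annotation of the array: 4 encode subunits of the membrane sector V0 (Atp6v0a1, Atp6v0b, Atp6v0c and Atp6v0d1) and 6 encode subunits of the cytosolic sector V1 (Atp6v1a, Atp6v1b2, Atp6v1c1, Atp6v1d, Atp6v1e1 and Atp6v1h). Total RNA of brain synaptosomes, a fraction of nerve endings that seal when brain tissue is homogenised, was hybridised to 6 arrays in 1 colour (Cy3), 3 of knock-in (KI) mice and 3 of wild-type (WT) mice. The genotype field of the KI samples reads knock-out, while their descriptions (KI) and the study design read knock-in. The knocked-in allele, the strain, the age and the sex of the mice are not given in the sources used here, nor whether each sample came from a separate animal, so the p-values measure only the spread between these samples. The title places the work in the study of FMR1 and of the fragile X-associated tremor/ataxia syndrome. All 3 KI arrays and WT replicate 3 were on slide 1, and WT replicates 1 and 2 were on slide 2.

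The V-ATPase is a rotary pump that spends ATP to move protons into organelles. In V1, a ring of alternating A and B subunits hydrolyses ATP and turns a central shaft, which rotates the proteolipid ring of V0 past the a subunit, where protons cross the membrane. At nerve terminals the resulting proton gradient drives the loading of neurotransmitter into synaptic vesicles, and in lysosomes it keeps the lumen acidic. V1 and V0 can come apart and reassemble, which is a known way of regulating the pump.

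Promoter windows were available for 7 of the 10 genes. They are RefSeq sequences of build GRCm38.p6, from 250 bases before to 50 bases after a transcript start, with 3 windows for Atp6v0c and 1 for each other gene. They were searched for the E-box CACGTG, which reads the same on both strands and is the core of the element that the lysosomal transcription factor TFEB binds. The 7 genes had 9 windows in all. It occurred in the windows of 3 genes, which have 1 window each, and in 7.15% of all 32851 windows. The longer form TCACGTGA, which contains the E-box, occurred in 2 of these genes, Atp6v0d1 and Atp6v1a, and in 0.974% of all windows. The matches are shown with the flanking bases because lysosomal genes are described alongside the pump further on; capitals mark the E-box.
Atp6v0b, chr4:117887348-117887377, minus strand, 36 bases before the start: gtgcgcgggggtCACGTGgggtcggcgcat
Atp6v0b, chr4:117887330-117887359, minus strand, 18 bases before the start: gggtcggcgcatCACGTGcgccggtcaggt
Atp6v0d1, chr8:105566050-105566079, minus strand, 3 bases before the start: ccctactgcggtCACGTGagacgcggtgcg
Atp6v1a, chr16:44139373-44139402, minus strand, 131 bases before the start: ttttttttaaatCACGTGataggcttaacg

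Each probe is an oligonucleotide of 60 bases. The first 30 bases are shown for the genes with 2 probes, for Atp6v1d, whose groups did not overlap, and for Atp6v1h, which had the largest difference, since the sequence defines which part of the transcript was read. Their positions are those of the array annotation on build mm9.
Atp6v1a, probe starting at base 3577 of the transcript, chr16:44085826-44085885, minus strand: aggctacagaaacaatgcccagattttcac
Atp6v1a, probe starting at base 3820, chr16:44085583-44085642, minus strand: catcctgaacaatgaatagaagaggctata
Atp6v0a1, probe starting at base 3946, chr11:100924969-100925028, plus strand: accctgtccaaggccttctgtccagacatc
Atp6v0a1, probe of the transcript ENSMUST00000100436, chr11:100910359-100910418, plus strand: actacttccagttccagctatttaaaattc
Atp6v1h, probe starting at base 1052, chr1:5123207-5123266, plus strand: tatgctctggctatgattcaatgcaaagta
Atp6v1d, probe starting at base 1326, chr12:79943993-79944052, minus strand: ctttgcacgatatgtgtttgtaatggaagc
The GC content of the 12 probes lay between 35% (the Atp6v1a probe at base 3820) and 55% (Atp6v0c), around the median of 43.3% over all non-control probes. The Atp6v0c probe is also listed for the transcribed pseudogene Atp6v0c-ps2, so its signal may hold both transcripts.

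None of the 10 subunit genes passed the test for a difference between KI and WT. Levels are given as log2 of the processed intensity relative to the 75th percentile of the array, and differences as KI minus WT on that scale with the standard error (SE) of limma. By limma with Benjamini-Hochberg adjustment over 20975 genes, 0 of 10 members had an adjusted p under 0.05, against 0.00954% of all genes (2 genes). At an unadjusted p under 0.05 the count was also 0 of 10, against 10.9% of all genes. Of the members, 6 had a difference below 0 and 4 above (4 below after quantile or cyclic loess normalization, 5 after normexp, and 3 in the authors' value table), against 59.1% of all genes below 0. Their median difference was -0.03, beside a median of -0.05 over all genes, and it was -0.04 over the V0 members and -0.03 over the V1 members. The adjusted p-values of the members lay between 0.490 and 0.947. The 95% intervals of all 10 held 0. They reached down to -0.56 (0.678-fold, Atp6v0b) and up to 0.88 (1.84-fold, Atp6v1h), and 9 of 10 lay within 1.5-fold either way. Chosen after its value was seen, Atp6v1d was the 1 gene whose KI arrays all lay below the WT arrays, as did 12.5% of all genes, and 0 members lay wholly above, against 7.87% of all genes.

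**Figure D1:**
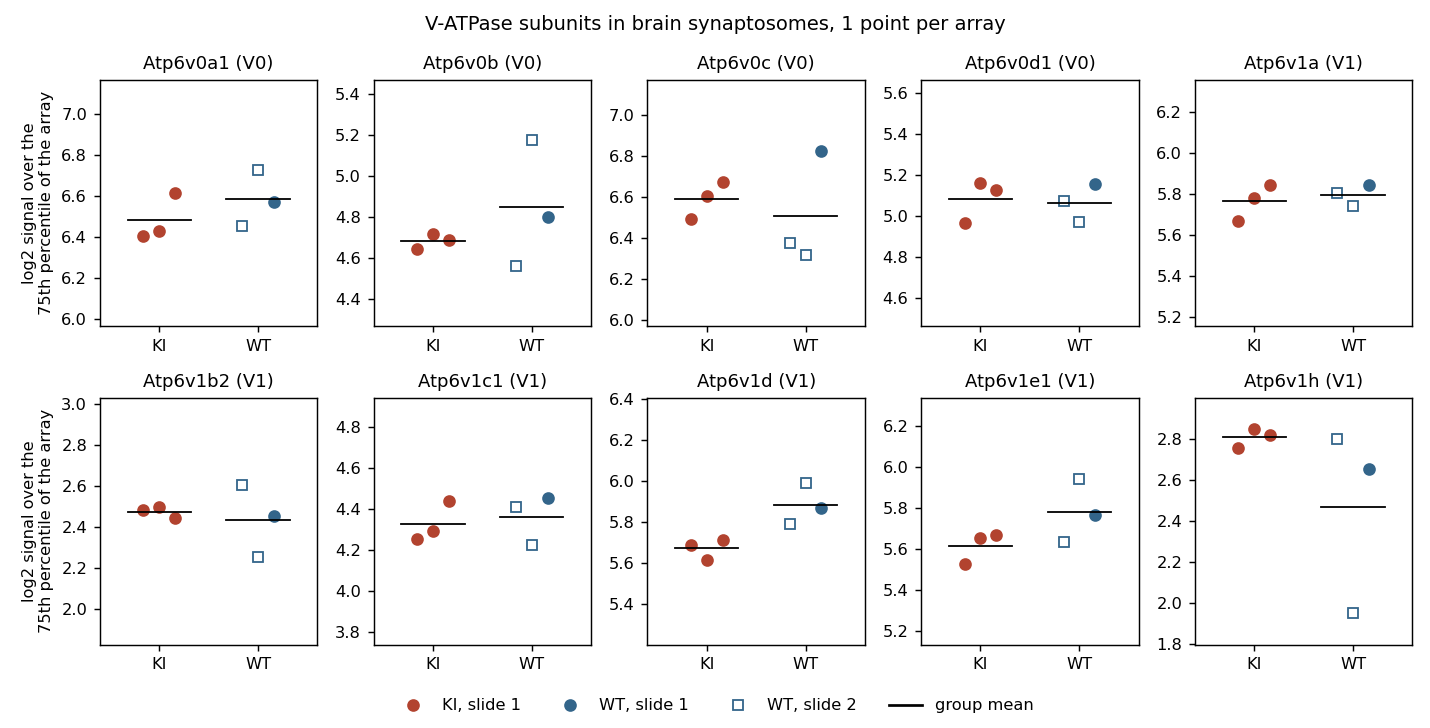
Level of each V-ATPase subunit gene (vertical axis, log2 signal over the 75th percentile of the array) on the 3 KI and 3 WT arrays, with the slide marked by the symbol and group means as lines; all panels span the same range. The groups overlap in 9 of 10 genes, Atp6v1d being the exception, and the WT points of Atp6v1h and Atp6v0b are spread more widely than the KI points.

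The membrane sector was represented by 4 genes. Atp6v0a1, the a subunit isoform enriched in neurons, read 6.40, 6.43 and 6.61 in KI replicates 1 to 3, against 6.45, 6.73 and 6.57 in WT replicates 1 to 3. The groups overlapped, with a difference of -0.10 (SE 0.12) that was -0.03 without WT replicate 2 and -0.17 without KI replicate 3 or WT replicate 1. Its other probe, for the transcript ENSMUST00000100436, was not well above background on any array: its processed intensity before scaling lay between 6.96 and 10.3 in KI and between 5.66 and 12.5 in WT, while the probe at base 3946 read between 74822 and 89178 in KI and between 50656 and 78179 in WT. That alternative transcript was therefore not detected by this probe, which does not show that it was absent.

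The proteolipid ring is formed by c subunits (Atp6v0c) and a c″ subunit (Atp6v0b). Atp6v0c read 6.49, 6.60 and 6.67 in KI, against 6.38, 6.32 and 6.82 in WT. Both WT arrays of slide 2 lay below every KI array, and the WT array of slide 1 lay above every KI array. The difference was 0.08 (SE 0.16) over all arrays, -0.24 (SE 0.13) within slide 1, which holds 1 WT array, and -0.01 without WT replicate 2. Slide and WT replicate 3 cannot be told apart there. Atp6v0b read 4.65, 4.72 and 4.69 in KI, against 4.56, 5.18 and 4.80 in WT. The KI values were close together and lay inside the WT range, with a difference of -0.16 (SE 0.17) that was 0.0034 without WT replicate 2.

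Atp6v0d1, the d subunit that connects the central shaft to the ring, read 4.97, 5.16 and 5.13 in KI, against 5.07, 4.97 and 5.15 in WT. This was the smallest difference of the V0 members, 0.02 (SE 0.11). The genes with the extended E-box, Atp6v0d1 and Atp6v1a, differed by 0.02 and -0.03, and Atp6v0b, with the E-box alone, by -0.16.

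In the catalytic ring, Atp6v1a, the A subunit that hydrolyses ATP, read 5.67, 5.78 and 5.84 in KI, against 5.81, 5.74 and 5.84 in WT on its brighter probe. The groups overlapped, with a difference of -0.03 (SE 0.10). Its dimmer probe, 243 bases closer to the end of the transcript, read 3.81, 3.79 and 3.95 in KI, against 4.06, 4.13 and 3.99 in WT, which did not overlap (difference -0.22, SE 0.10, limma's adjusted p = 0.506 over 29318 probes). Within each array, the dimmer minus the brighter probe was -1.86, -1.99 and -1.90 in KI, against -1.74, -1.61 and -1.85 in WT. The KI arrays lay below all WT arrays in that value (exact two-sided permutation p = 0.1, the smallest that 3 against 3 arrays allow; compared after the values were seen), by a narrow margin between KI replicate 1 and WT replicate 3. Atp6v1b2, the B subunit isoform of brain, read 2.48, 2.50 and 2.44 in KI, against 2.60, 2.25 and 2.45 in WT. The KI arrays lay within the WT range, with a difference of 0.04 (SE 0.12).

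The central shaft is formed by the D and F subunits, and the outer stalks by E and G. Atp6v1d, the D subunit, read 5.69, 5.62 and 5.71 in KI, against 5.79, 5.99 and 5.87 in WT. All KI arrays lay below all WT arrays. KI averaged 5.67 ± 0.05 and WT 5.88 ± 0.10 (SD, n = 3 each), a KI level of 0.865 of WT. The difference was -0.21 (SE 0.10, 95% interval -0.45 to 0.03), with limma's adjusted p = 0.490 and an exact two-sided permutation p of 0.1, the smallest possible. It kept its sign under all 21 alternative processings, between -0.26 and -0.07, and had adjusted p-values of 0.311 or more. Several of these alternatives leave the difference at its main value, so they could not turn its sign. Atp6v1e1, the E subunit, read 5.53, 5.66 and 5.67 in KI, against 5.63, 5.94 and 5.77 in WT. The groups overlapped through WT replicate 1, with a difference of -0.16 (SE 0.12) that was -0.08 without WT replicate 2 and -0.02 in the authors' value table.

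The C and H subunits join the stalks to the a subunit and bear on the coupling of V1 to V0. Atp6v1c1, the C subunit, read 4.26, 4.29 and 4.44 in KI, against 4.41, 4.22 and 4.46 in WT. The groups overlapped, with a difference of -0.03 (SE 0.11). Atp6v1h, the H subunit, which in yeast restrains ATP hydrolysis by detached V1, read 2.76, 2.85 and 2.82 in KI, against 2.80, 1.95 and 2.65 in WT. WT replicate 1 lay within the KI range, and WT replicate 2 was far below the other 5 arrays. The difference was the largest of the 10 in size at 0.34 (SE 0.22, adjusted p = 0.558 by limma), and it was 0.08 without WT replicate 2.

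**Figure D2:**
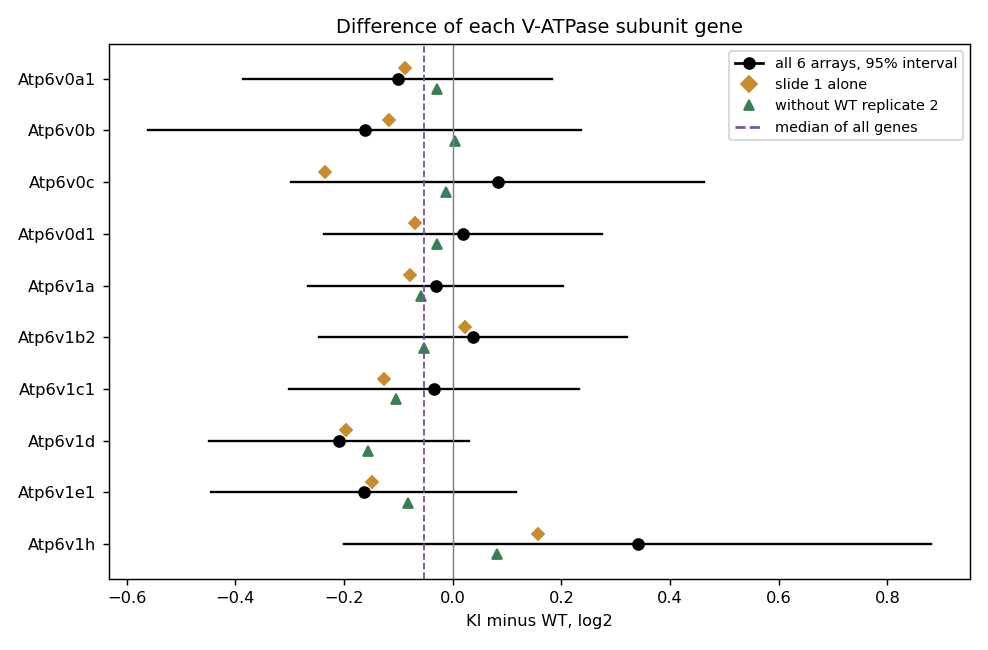
Difference between KI and WT for each V-ATPase subunit gene (horizontal axis, log2), with its 95% interval over all 6 arrays, the value within slide 1 and the value without WT replicate 2. Every interval crosses 0, and the value of Atp6v0c within slide 1 (-0.24) lies on the other side of 0 from its value over all arrays (0.08).

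WT replicate 2 was the array on which most members lay farthest from their own mean. This held for 7 of the 10 members, and for 42.4% of all genes. The members did not move one way on it: Atp6v0b lay 0.41 above its mean over the 6 arrays, Atp6v1e1 0.24, Atp6v1d 0.21 and Atp6v0a1 0.20 above, and the other 6 members lay below, with Atp6v1h at -0.69, Atp6v0c at -0.23 and Atp6v1b2 at -0.20. In 8 of the 10 members the SD over the WT arrays was larger than that over the KI arrays, as it was in 71.1% of all genes. For Atp6v1h the SD was 0.05 in KI and 0.46 in WT, and for Atp6v0b 0.04 in KI and 0.31 in WT (n = 3 each).

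**Figure D3:**
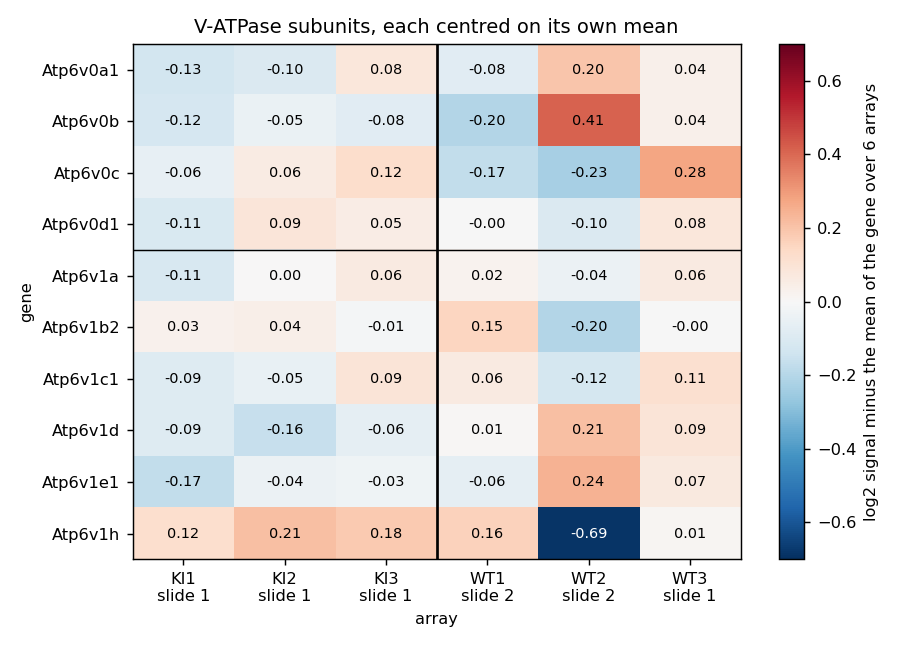
Level of each V-ATPase subunit gene on each array minus the mean of that gene over the 6 arrays (log2, colour and printed value), with KI arrays left of the WT arrays and V0 genes above V1 genes. WT replicate 2 holds the lowest value, -0.69 for Atp6v1h, and the highest, 0.41 for Atp6v0b.

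Within slide 1, where the 3 KI arrays could be compared with WT replicate 3 only, 8 of 10 members were lower in KI, against 56.3% of all genes, with a median difference of -0.10 over the members and -0.03 over all genes. All 3 KI arrays lay below that WT array in 5 members and above it in 1, Atp6v1h, against 36.4% and 26.0% of all genes. With 1 WT array there, the lowest adjusted p of a member was 0.695 by limma. Slide 2 held WT arrays only, so no value within it was possible. Before scaling, the processed intensity at the 75th percentile was 883, 909 and 910 on the KI arrays, against 578 and 580 on WT replicates 1 and 2 and 823 on WT replicate 3. Accordingly all 11 kept member probes had higher unscaled intensities on every KI array than on both WT arrays of slide 2. Against WT replicate 3, 2 probes were higher on all KI arrays, 2 were lower on all, and 7 held it within the KI range. For Atp6v1d the unscaled intensities were 45552, 44619 and 47793 in KI, against 31989, 36866 and 48139 in WT, so against WT replicates 1 and 2 it was higher in KI before scaling and lower after it.

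**Figure D4:**
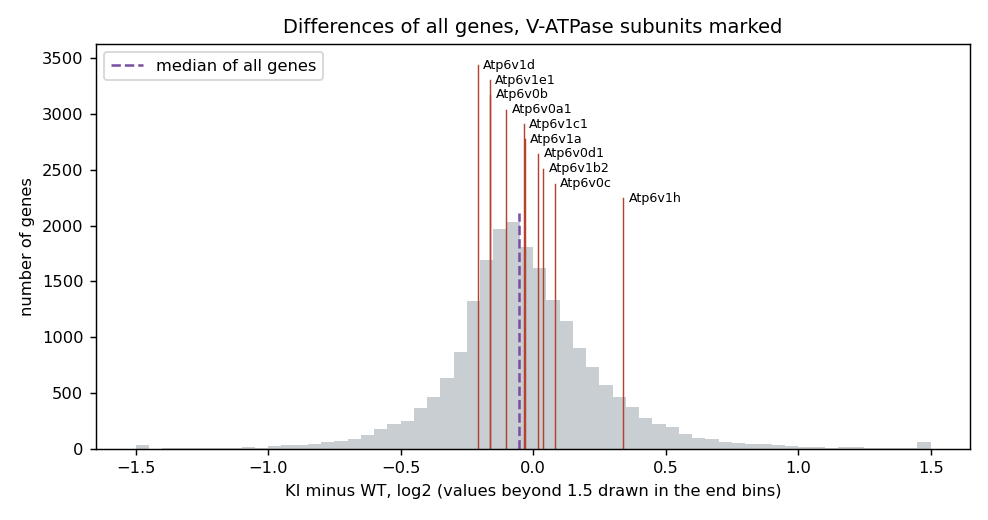
Number of genes by their difference between KI and WT (log2, bins of equal width), with the 10 V-ATPase subunit genes marked by lines and the median of all genes dashed. The members lie on both sides of the median of -0.05, between -0.21 (Atp6v1d) and 0.34 (Atp6v1h).

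With every probe tested on its own, 0 of the 11 kept member probes had an adjusted p under 0.05 by limma (0 at an unadjusted p under 0.05), against 0.00682% of all 29318 probes. The KI arrays lay wholly below the WT arrays for 2 probes, that of Atp6v1d and the dimmer one of Atp6v1a, against 12% of all probes, and wholly above for 0, against 7.93%.

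The remaining subunits and accessory proteins of the pump, a list of 16 genes of which 13 were measured, likewise had 0 genes with an adjusted p under 0.05 (0 at an unadjusted p under 0.05), with 7 higher and 6 lower in KI and a median difference of 0.01. Atp6v1f, the F subunit that forms the central shaft with D, read 5.89, 5.81 and 5.88 in KI, against 6.02, 6.46 and 6.09 in WT. Its KI arrays lay below all WT arrays, with a difference of -0.33 (SE 0.14, adjusted p = 0.462 by limma). In this list the KI arrays lay wholly below in 1 gene and wholly above in 2, against 12.5% and 7.87% of all genes. Atp6v0e, a small V0 subunit, read 3.27, 3.21 and 3.12 in KI, against 2.92, 3.00 and 3.04 in WT, without overlap (difference 0.21, SE 0.10). Atp6ap2, the accessory subunit also known as the prorenin receptor, read 4.05, 3.99 and 4.03 in KI, against 3.91, 3.28 and 3.77 in WT, again without overlap (difference 0.37, SE 0.17). The a2 isoform Atp6v0a2 differed by -0.38 (SE 0.18) and overlapped between groups. The 3 listed genes that were not kept were Atp6v0d2 (2 probes) and Atp6v1g3, not well above background on any array, and the kidney isoform Atp6v1b1, well above it on 1 array. Probes disagreed for Atp6v1g2, the G subunit of neurons, at 0.44 (SE 0.32) on the brighter probe and -0.30 (SE 0.25) on the other. On its brighter probe WT replicate 2 read 2.88, against 3.73 and 4.16 in WT replicates 1 and 3, and in Atp6ap1 it read 2.95, against 3.86 and 3.85.

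Genes that assemble or regulate the pump, 12 of 13 listed being measured, had 0 with an adjusted p under 0.05, 5 higher and 7 lower in KI, and a median of -0.09. The smallest p was that of Oxr1, whose TLDc domain protein binds the pump. Oxr1 read 3.61, 3.71 and 3.94 in KI, against 3.98, 4.23 and 4.16 in WT, without overlap (difference -0.37, SE 0.13, unadjusted p = 0.0267, adjusted p = 0.433 by limma). It was the 1 measured gene of this list without overlap, against 12.5% of all genes wholly below and 7.87% wholly above. Ncoa7, which encodes another TLDc protein, differed by -0.65 (SE 0.32), Tbc1d24 by -0.37 (SE 0.19) and Wdr7, the beta subunit of rabconnectin-3, by -0.35 (SE 0.19). These 3 overlapped between groups. In Ncoa7 WT replicate 2 read 0.53, against -0.28 and -0.80 in WT replicates 1 and 3. In Tbc1d24 it read -1.70, against -2.24 and -2.30. Transporters that use the proton gradient to fill vesicles had 8 of 9 genes measured, 5 higher and 3 lower, with a median of 0.05. Among them were Slc18b1 at -0.25 (SE 0.11), Slc17a9 at -0.42 (SE 0.19), Slc17a8 at -0.32 (SE 0.24) and Slc18a2, the vesicular monoamine transporter, at 0.47 (SE 0.42). In Slc18a2 WT replicate 2 read -3.18, against -2.13 and -1.42 in WT replicates 1 and 3. Slc17a9 was dim, at -5.38 on average in KI and -4.96 in WT. It was well above background on only 1 KI and 2 WT arrays. Genes of chloride and proton exchange in vesicles, endosomes and lysosomes, all 10 measured, had 3 higher and 7 lower in KI and a median of -0.10. Of all genes 59.1% were lower. Among the 10 were Clcn5 at -0.25 (SE 0.13), Clcn6 at -0.17 (SE 0.12), Clcn3 at -0.14 (SE 0.10) and Ostm1 at -0.12 (SE 0.11). Neither list had a gene with an adjusted p under 0.05, or with an unadjusted p under 0.05, by limma.

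Lysosomal membrane and hydrolase genes, 22 of 22 measured, went both ways, with 10 higher, 12 lower and a median of -0.01. Galc, a galactosylceramidase, read -2.50, -2.26 and -2.35 in KI, against -2.72, -2.80 and -2.84 in WT (difference 0.42, SE 0.11, unadjusted p = 0.0067, adjusted p = 0.399 by limma). Npc1, a lysosomal cholesterol transporter, differed by 0.47 (SE 0.23), also without overlap, and Gla by -0.18 (SE 0.12). In Npc1 WT replicate 2 read -0.85, against -0.06 and -0.05 in WT replicates 1 and 3. Of 14 genes of lysosomal nutrient sensing and TFEB, 7 were higher and 7 lower, with a median of 0.00. Lamtor2, a subunit of the Ragulator complex that the pump binds on lysosomes, read 1.67, 1.63 and 1.61 in KI, against 1.92, 2.13 and 2.51 in WT (difference -0.54, SE 0.16, unadjusted p = 0.0130, adjusted p = 0.413 by limma). Slc38a9, an arginine sensor, differed by 0.23 (SE 0.10) without overlap, Rragd by -0.59 (SE 0.28), Rragb by 0.63 (SE 0.33) and Tfeb itself by -0.07 (SE 0.15). In Rragb WT replicate 2 read -1.25, against 0.09 and -0.23 in WT replicates 1 and 3. In both lists 0 genes had an adjusted p under 0.05. The KI arrays lay wholly below in 1 of the 22 genes and 3 of the 14, against 12.5% of all genes. They lay wholly above in 2 genes of each list, against 7.87% of all genes.

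The genes whose levels over the 6 arrays were most like the mean of the 10 members were sought among 13810 named genes detected on all arrays. They included Slc30a3, the zinc transporter of synaptic vesicles (Pearson r = 0.993), Habp4 (0.992), Kifbp (0.989) and Pdk2 (0.988). The mean itself followed some members and not others: with the mean of the other 9 members, Atp6v1a correlated at 0.91, Atp6v0d1 at 0.76, Atp6v1c1 at 0.75 and Atp6v0c at 0.57, but Atp6v0a1 at 0.07, Atp6v1e1 at -0.02, Atp6v1d at -0.13, Atp6v1b2 at -0.15, Atp6v1h at -0.40 and Atp6v0b at -0.41. All of these coefficients describe 6 arrays that share their scaling and slides, and those of the 4 genes were among the highest of a large search. The differences of these 4 genes lay between -0.08 and -0.05. In Slc30a3 the levels were 0.53, 0.87 and 1.17 in KI, against 0.83, 0.67 and 1.31 in WT, lowest in KI replicate 1 and highest in WT replicate 3.

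Markers were read beside the tissue label. All 8 nerve terminal markers (among them Syp, Syn1, Snap25 and Syt1) were well above background on the 6 arrays. These mRNAs are also held by neuron cell bodies, so their detection cannot test the label. All 6 markers each of astrocytes, microglia and oligodendrocytes were detected likewise, so RNA of other brain cells was present too. Of 4 listed nuclear transcripts, the 3 kept (Malat1, Meg3 and Neat1) were also well above background on all 6 arrays. The summed level of the terminal markers, in multiples of the 75th percentile of the array, lay between 717 and 845 in KI and between 743 and 897 in WT. Relative to the mean of all 6 arrays, the terminal markers averaged -0.17, -0.03 and 0.09 in KI, against -0.13, 0.12 and 0.12 in WT, while the median over the members was -0.10, -0.02 and 0.06 in KI, against 0.00, -0.07 and 0.06 in WT. KI replicate 1 was the lowest array by both measures. The 10 striatal neuron markers differed far more between arrays, with summed levels of 319, 126 and 58.0 in KI, against 225, 51.2 and 53.7 in WT. All 10 had a difference above 0 (median 0.73, and 0.33 without WT replicate 2). Within slide 1, which holds 1 WT array, their median was 1.54. Oligodendrocyte markers summed to 186 to 255 in KI and 159 to 224 in WT. All 6 had a difference above 0 (median 0.30, 0.18 without WT replicate 2, and 0.27 within slide 1). Both counts were the same under quantile, cyclic loess and normexp processing and in the authors' value table. Gfap, an astrocyte marker, differed by 0.75 (SE 0.26, adjusted p = 0.433 by limma) and Cldn5, an endothelial one, by -0.99 (SE 0.30, adjusted p = 0.414 by limma), both without overlap. Their lists went both ways. Of the astrocyte markers 4 were higher and 2 lower (median 0.09). Of the 3 measured endothelial ones 1 was higher and 2 lower (median -0.13). Of the 6 microglial markers 4 were higher and 2 lower (median 0.14). The KI arrays lay wholly above in 2 astrocyte and 2 microglial markers, against 7.87% of all genes. They lay wholly below in 1 endothelial and 1 microglial marker, against 12.5% of all genes. No marker in these lists had an adjusted p under 0.05. The part of these differences in the values of the pump genes was not tested, and in such bulk RNA fewer terminals of a kind and less RNA per terminal cannot be told apart. Fmr1, the gene in the title, was read by 3 probes, and on the brightest it was at 2.08, 2.24 and 2.27 in KI, against 1.42, 1.33 and 1.37 in WT (adjusted p = 0.198 by limma), with all KI arrays above all WT arrays on the 3 probes. The labels give an RNA integrity number of 10 for all samples and an input of 0.2 µg for 5 samples, while KI replicate 1 is listed at 0.0 µg.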

How the data were processed

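The authors deposited, per the file headers, an intensity for each spot from Agilent Feature Extraction 10.7.3.1, corrected by the scanner software for background and for trends across the slide, with no normalization between arrays. They also deposited a table of log2 values whose columns share nearly the same median (6.55 to 6.56); no source used here gives its normalization. Values came from the processed intensity of non-control spots without spots marked as outliers, taken as log2 minus the 75th percentile of the array. Spots of a probe were averaged. Probes well above background on at least 3 of 6 arrays were kept, which left 29318 probes. The brightest kept probe stood for its gene (20975 genes). Genes were named through the RefSeq table of GRCm38.p6 where a probe matched it. Of the 55681 non-control probes, 24300 did not and kept the name in the array files, so the gene counts include such names. Of the 12 member probes 11 were kept, and all 10 genes. Saturated spots numbered 0.

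The KI and WT arrays were fitted by lmFit and eBayes (limma 3.58.1, run under R 4.3.3), with two-sided p-values adjusted by Benjamini-Hochberg over all genes, with a threshold of 0.05. The number of arrays limits the precision. The fit was tested on simulated data. The genes named are the 10 members, Fmr1, up to 4 genes of smallest p of each list, and the 5 genes most like the member mean; some genes that this rule takes are not reported here. The members and lists were chosen with earlier results of these data known. Replicate numbers are shared by the groups, but the deviations of same-numbered arrays correlated at 0.398, -0.0242 and 0.253, so they were not taken as pairs.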

Additional observations from a re-analysis of the deposited data

How the results depend on the processing

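Of 21 alternatives, 0 brought a member gene, and of 20 at probe level 0 brought a member probe, past limma's threshold, leaving out each array in turn included (0 to 0). Atp6v1d alone reached an unadjusted p under 0.05, with trend and robust moderation (0.0397) and with array weights (0.0474). Atp6v1d (-0.26 to -0.072), Atp6v1e1 (-0.24 to -0.017) and Atp6v1h (0.081 to 0.51) kept their sign under every alternative. Not all alternatives could turn it. For these genes the difference stayed at its main value under either other filter, with the mean of all probes and with outlier spots kept. The same held with the replicate number as a block and with trend and robust moderation. Slide as a fixed block gave the same differences as slide 1 alone. The median over the members crossed 0: it was 0.039 with quantile and 0.033 with cyclic loess normalization, 0.0042 with normexp, 0.042 with the authors' value table, 0.0090 without KI replicate 1 and 0.0018 without WT replicate 3. It lay between -0.080 and 0.0090 on leaving out 1 array, and the lowest value, -0.10, came with slide as a fixed block. With slide as a random block it was -0.031, and no member's sign turned.

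Signs of 7 members turned under some alternative. Atp6v1a was at 0.058 (quantile), 0.045 (cyclic loess), 0.023 (normexp), 0.094 (value table) and 0.016 (without KI replicate 1), and Atp6v1c1 at 0.027 (quantile), 0.020 (cyclic loess), 0.027 (value table), 0.0017 (without KI replicate 1) and 0.012 (without WT replicate 3). Atp6v0d1 was at -0.069 with slide as a fixed block or slide 1 alone, and at -0.020, -0.0016 and -0.028 without KI replicate 2, KI replicate 3 or WT replicate 2. Atp6v0c was at -0.24 with slide as a fixed block or slide 1 alone, -0.015 with array weights and -0.012 without WT replicate 2. Atp6v0a1 was at 0.051 with the value table, and without WT replicate 2 Atp6v0b was at 0.0034 and Atp6v1b2 at -0.054. Leaving out 1 array at a time gave -0.17 to -0.028 for Atp6v0a1, -0.30 to 0.0034 for Atp6v0b, -0.012 to 0.24 for Atp6v0c, -0.028 to 0.078 for Atp6v0d1, -0.071 to 0.016 for Atp6v1a, -0.054 to 0.12 for Atp6v1b2 and -0.10 to 0.012 for Atp6v1c1. The cause was not tested.

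The count over all genes, 2 in the main processing, was 1 with normexp, 0 with the value table, without a filter or with probes detected on all arrays, 5 with the mean of all probes, 7 with slide as a fixed block, 5 with slide as a random block or slide 1 alone, 6 with trend and robust moderation, and 0 to 3 on leaving out 1 array (0 without WT replicate 1 or 2). With the replicate number as a block it was 0, the member differences were the same, and 0 members passed; not every array correlated best with its own number, so the pairing is not taken from the data.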
